A study of Homo sapiens with 6 samples.

Results

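Among the poly(A) 3′-end peaks of IMR-32 neuroblastoma cells, 1515 were at least 500 bp wide. They were 0.764% of the 198274 peaks on chromosomes 1 to 22 and X outside 3 windows of unusually dense signal. The deposited list held 200023 peaks in all, of which 1551 were that wide. Members were chosen by width alone, the value in the list that runs from the first to the last base of a peak. Width, pileup, fold enrichment and q value all come from the same peak call, so they are given here as a description and were not tested.

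Poly(A) 3′-end sequencing reads RNA at the base where it was cleaved and tailed. Most protein-coding RNAs end at a polyadenylation signal, a hexamer that is usually AATAAA or ATTAAA and lies a short way before the cleavage site. Reads from 1 cleavage site fall close together, and reads from a row of sites can merge into a wider peak. Sites inside introns, near gene starts and past gene ends are used as well. CDK12 and CDK13 are kinases that phosphorylate the tail of RNA polymerase II and are known to sustain transcription elongation.

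The study treated IMR-32, an established human neuroblastoma line, with DMSO or with THZ531, a covalent inhibitor of CDK12 and CDK13, at 400 nM for 2 h or 6 h, with 2 libraries in each of the 3 groups. One peak list was called on the merged reads, taken here to be those of all 6 libraries. It therefore holds no value per library, no strand and no replicate error, and DMSO cannot be compared with THZ531 in it. All intervals below are 95% intervals and cover counting error only, with each peak as 1 count, although neighbouring peaks can share a gene. All 16 neuroblastoma markers examined, among them HAND2, CHGA and DBH, had a peak at an annotated transcript end, against 2 of 6 fibroblast and blood markers (COL1A1 and LUM).

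The members ranged from 500 to 2397 bp, with a median of 589 bp, and 86 of them reached 1000 bp. Their pileup at the summit, the number of extended reads that overlap there, ran from 4 to 110 with a median of 32. The median was 13 in the 111777 narrow peaks (under 200 bp, −log10 q of at least 5) and 29 in the 7809 of these with −log10 q of at least 20, called tall narrow peaks here. The local background that the caller set against the summit had a median of 3.12 reads in members and 1.16 in tall narrow peaks. Median fold enrichment was 7.23 in members and 13.4 in tall narrow peaks. Tall narrow peaks were picked by q value and members were not, so both contrasts depend on that choice. Over all narrow peaks the median background was 0.82 reads and the median fold 6.73. In members the summit lay a median of 310 bp before the 3′ edge, against 72 bp in tall narrow peaks. At the threshold, 14 members were exactly 500 bp wide and 12 peaks left out were 1 bp narrower. Of the 14, those named by the rule for ties lay at ENSG00000259410, at ZNF687 and outside genes on chromosome 6, with pileups of 15, 23 and 20 reads. Of the 12, those named lay at PTGES3, TLCD5 and ENSG00000273063, with 53, 41 and 26 reads. These are picks among tied widths and are not compared.

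The widest member lay at the 3′ part of JUN, a single-exon gene for an AP-1 transcription factor, at chr1:58779212-58781608 (GRCh38). It was 2397 bp wide, with a pileup of 76 reads at a summit that lay 722 bp before the annotated canonical end. It held 8 AATAAA or ATTAAA hexamers on the gene strand and 3 on the opposite strand. These 8 signals are shown because they spread over most of the peak, while the summit sits at the first of them. They run from 2303 to 669 bp before the 3′ edge, from chr1:58781497-58781526 for the first to chr1:58779863-58779892 for the last, all on the minus strand, with the signal in capitals.
JUN signal 1: ctgattactgtcAATAAAcagcttcatgcc
JUN signal 2: tttaccatttgtAATAAAgtatataatttt
JUN signal 3: ttaagaaaatacAATAAActattggaaagt
JUN signal 4: ttaagaatgtcgATTAAAatcactctcagt
JUN signal 5: ttagactttagaAATAAAtgtacctgatgt
JUN signal 6: cattcttgtcacAATAAAtgtattcaaata
JUN signal 7: acctcacccccaAATAAAcccctatgccta
JUN signal 8: tagcagagggacAATAAAgcattttggggt

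No further AATAAA or ATTAAA follows the eighth signal on the gene strand, so the 3′ edge of the JUN peak has neither hexamer just before it. The other widest members with 1 gene strand also had their summit far from the 3′ edge, a layout that rests on width and was not tested.

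**Figure D1:**
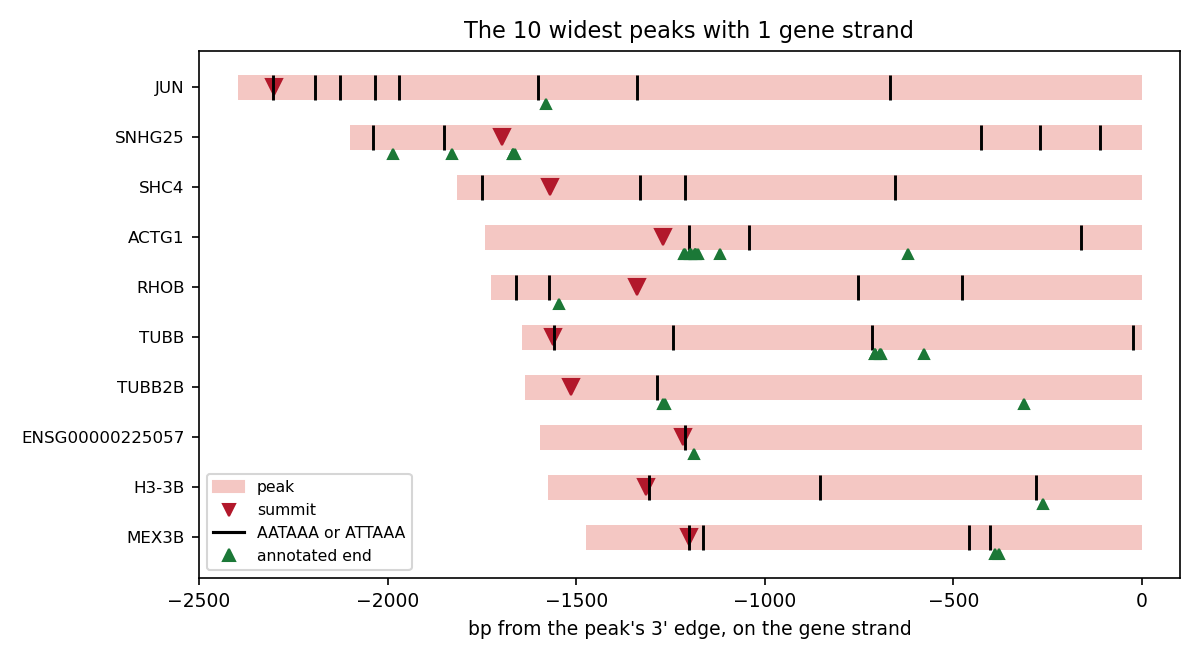
The 10 widest members with 1 gene strand at the summit (rows) are drawn to scale from their 3′ edge at 0 (x axis, bp on the gene strand), with the summit, AATAAA or ATTAAA hexamers and annotated transcript ends. In each of the 10 the summit lies at -1202 bp or farther upstream.

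Among the 12 widest members, 8 were placed at a named protein-coding gene. ZFP36L2, which encodes a protein that promotes decay of AU-rich mRNAs, carried a 1850 bp peak with 72 reads. UBE2S, a ubiquitin-conjugating enzyme, carried one of 1780 bp with 64 reads, and both peaks had genes of both strands at the summit, so their reads cannot be assigned to 1 gene. The same limit holds for peaks named further on at TUBB4B, TUBA1B, RPL38, MALAT1, H4C3, HEXIM1, RNU5A-1 and RNU4ATAC. RHOB, a small GTPase, carried one of 1727 bp with 69 reads. ACTG1, which encodes cytoplasmic gamma-actin, carried a 1743 bp peak with 97 reads that held 10 annotated ends. TUBB and TUBB2B, which encode beta-tubulins, had peaks of 1644 and 1637 bp with 72 and 87 reads; tubulin genes have close copies, so reads may have been shared between them. A peak in intron 4 of SHC4, 1816 bp wide with 74 reads, lay 941 bp past the end of EID1, a gene that lies inside SHC4. The list gives no strand, so its reads cannot be assigned to either gene. SNHG25, a snoRNA host gene, had the widest lncRNA member at 2102 bp.

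The 6 members with the highest pileups were 511 to 1743 bp wide, and ACTG1 (above) was among them. HSP90AB1, which encodes a cytosolic chaperone, reached 110 reads in a 511 bp peak. ATXN7L3, a subunit of the SAGA deubiquitinase module, reached 103 reads and PCBP2, a poly(C)-binding protein, 101 reads, in peaks of 877 and 570 bp. In each of these peaks the annotation had genes of both strands at the summit (SLC35B2, TMUB2 and MAP3K12 are the neighbours), so their reads cannot be assigned to 1 of them. NNAT, an imprinted neuronal gene, reached 98 reads in a 1590 bp peak that also had genes of both strands at its summit. Across members, 55 held annotated ends of both strands.

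Members lay at annotated transcript ends more often than narrow peaks did, and in introns less often. By the position of the summit, 580 members (38.3%, Wilson interval 35.9 to 40.8) were at a transcript end, meaning between 200 bp before and 600 bp after an annotated end, 216 (14.3%) in another exon, 497 (32.8%) in an intron and 222 (14.7%) outside genes. Among narrow peaks the transcript-end share was 21.1%, a difference of 17.2 points (Newcombe interval 14.8 to 19.7). The intron share was 60.6% among narrow peaks, 27.8 points higher than among members (Newcombe interval for members minus narrow, -30.1 to -25.3). Both directions turned when the narrow peaks were the tall ones. Of tall narrow peaks 55.2% were at a transcript end and 26.2% in an intron, so members were 16.9 points below them at ends (difference -16.9, interval -19.6 to -14.2) and 6.61 points above them in introns (interval 4.09 to 9.20). With −log10 q of at least 20 required of both, the transcript-end shares differed by 0.808 points (interval -3.21 to 4.76), and the intron share of members was again lower (difference -8.63 points). This last comparison was added after the data were seen.

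The share outside genes did not turn. It was 8.49% among narrow and 5.46% among tall narrow peaks, against 14.7% of members (difference 6.16 points, interval 4.47 to 8.04, and 9.20 points, interval 7.43 to 11.1).

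**Figure D2:**
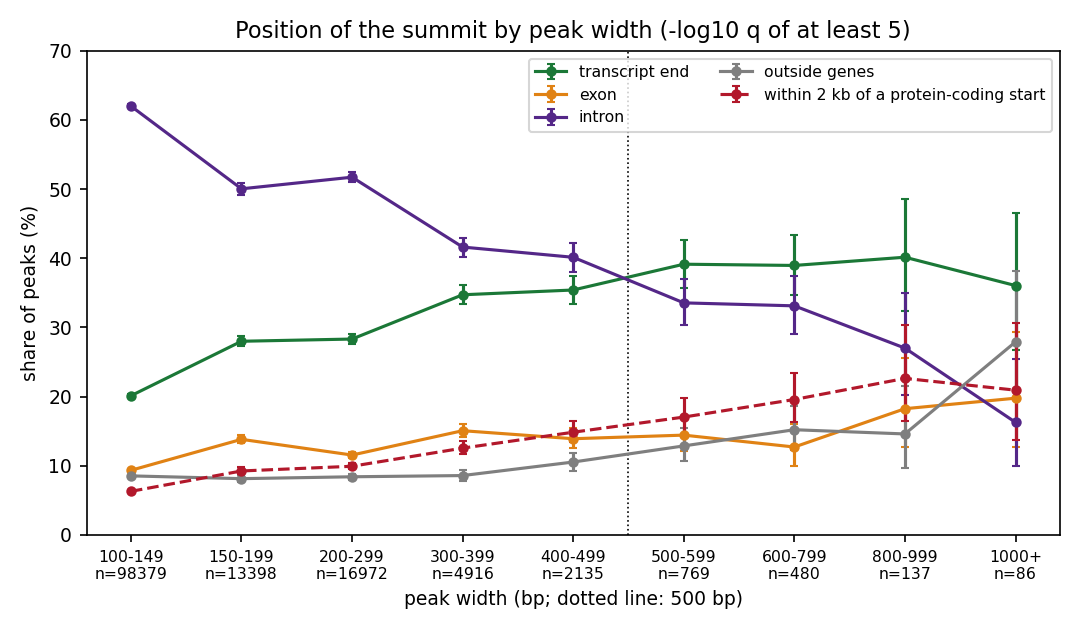
Share of peaks (y axis, %) with the summit at a transcript end, in another exon, in an intron or outside genes, and within 2 kb of a protein-coding gene start, by peak width in bp (x axis), for peaks with −log10 q of at least 5; bars are Wilson 95% intervals. The intron share falls from 62.0% at 100 to 149 bp to 16.3% at 1000 bp or more, while the share outside genes is 27.9% in the widest bin.

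Members lay near the starts of protein-coding genes more often than narrow peaks did, a measure that was added after the data were seen. In all, 282 members (18.6%, interval 16.7 to 20.7) had the summit within 2 kb of the start of a canonical protein-coding transcript, against 6.65% of narrow, 7.45% of tall narrow and 10.9% of intermediate peaks (200 bp to under 500 bp). Members were 11.96 points above narrow peaks (interval 10.1 to 14) and 11.2 points above tall narrow peaks (interval 9.19 to 13.3). Close to the start the difference was not resolved. Within 500 bp on either side the shares were 1.25% and 0.827% (difference 0.428 points, interval -0.0256 to 1.13). From 500 to 2000 bp upstream they were 9.97% of members and 2.90% of narrow peaks, and from 500 to 5000 bp downstream 30.4% and 9.12%. These shares pool all classes, so the ends of short genes can count as near a start. Within 2 kb of a start lay 12.9% of members and 7.18% of narrow peaks at transcript ends, and 18.5% and 9.09% in other exons. Outside genes the shares were 24.3% and 14.8%, and members were not above intermediate peaks there (24.8%).

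**Figure D3:**
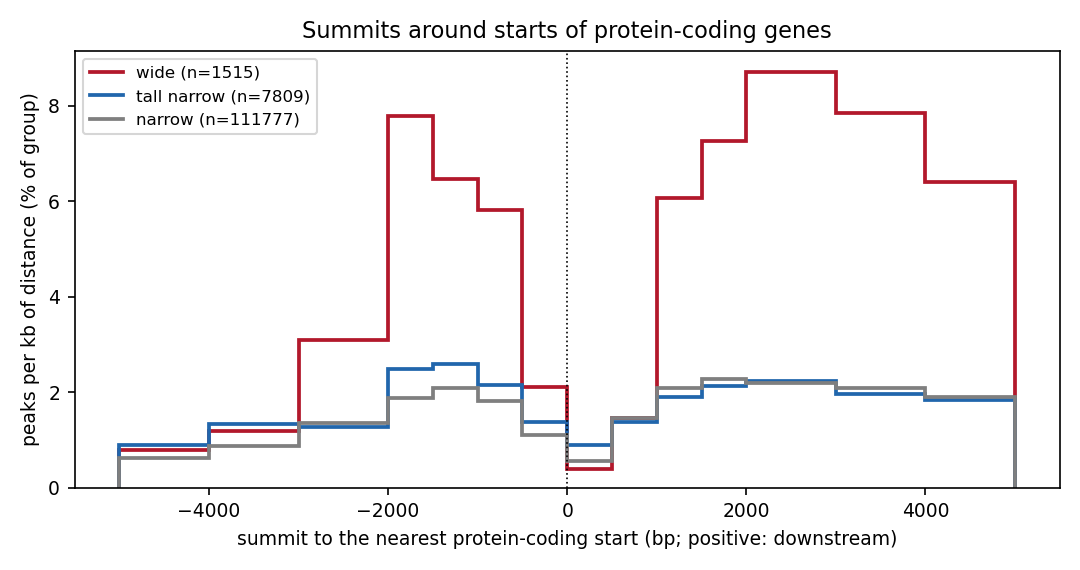
Peaks per kb of distance (y axis, % of the group) against the distance from the summit to the nearest protein-coding start (x axis, bp, positive downstream) for members, tall narrow and narrow peaks. Members rise to 7.79% per kb at 1500 to 2000 bp upstream and 8.71% per kb at 2000 to 3000 bp downstream, above both other groups, and fall to 0.396% per kb in the first 500 bp downstream.

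The same held among intronic peaks. Of intronic members 22.7% lay within 2 kb of a start, against 4.93% of narrow and 6.89% of tall narrow intronic peaks (differences of 17.8 and 15.8 points, intervals 14.3 to 21.7 and 12.2 to 19.9). Of the 376 members in a numbered intron of a canonical protein-coding transcript, 211 (56.1%) were in the first intron, against 29.9% of narrow and 32.7% of tall narrow peaks (differences 26.2 and 23.4 points, intervals 21.1 to 31.2 and 17.9 to 28.8). The widest first-intron members within 2 kb of a start were at NDUFB10, a complex I subunit, with 88 reads in 1138 bp, at CCNI, a cyclin, with 60 reads in 1136 bp, and at AARS1, the alanyl-tRNA synthetase, with 26 reads in 1079 bp. CIRBP, a cold-inducible RNA-binding protein, followed with 51 reads in 993 bp. In the first intron of TUBB3, a neuronal beta-tubulin, a peak of 844 bp held 44 reads 1740 bp past the start. The protein-coding genes of intronic members had a median length of 60.8 kb (interval 51.99 to 70.7), against 138.6 kb (130.4 to 147.3) for tall narrow intronic peaks, with each peak counted once.

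Of the 167 members up to 2 kb upstream of a start, 54 had no annotated gene at the summit, 47 lay in a gene of the same strand as the downstream gene, 49 in a gene of the opposite strand, and the rest had genes of both strands there. The peak list has no strand, so transcription toward the gene and away from it cannot be told apart.

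Members outside genes gathered past gene ends. Of these 222 members, 89 (40.1%, interval 33.9 to 46.7) had the summit 600 to 4000 bp past the nearest protein-coding end, against 13.8% of narrow and 11.03% of tall narrow peaks outside genes (differences 26.3 and 29.1 points, intervals 20.01 to 32.9 and 22 to 36.1). Only 19.8% lay over 10 kb from every protein-coding start and end, against 48.9% of narrow peaks there. A 1749 bp peak with 80 reads lay 1630 bp past the end of UBB, which encodes ubiquitin, and one of 1422 bp with 99 reads lay 712 bp past FAM43A. A 1615 bp peak with 59 reads lay 619 bp past HSPB1, a small heat shock protein. A 1756 bp peak with 44 reads on chromosome 12 was 104316 bp past the nearest protein-coding end, that of SCARB1.

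At transcript ends, many members also ran on past the annotation. Of the 415 with 1 gene strand at the summit, 32.0% (interval 27.7 to 36.7) had a 3′ edge over 200 bp past the last annotated end of their gene, and 14.7% over 500 bp past it. These shares were 4.09% and 0.901% of the 3329 tall narrow peaks. Both rest on the peak's edge and so on width, and they were not tested.

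Genes with more than 1 member numbered 72 among the 1136 protein-coding genes that had any. In this count and in the counts by gene below, 1 peak could count for each of several genes at its summit. GSE1, a coregulator subunit, had 3, with 22, 52 and 76 reads, all in introns. ENSG00000280441, an lncRNA on the short arm of chromosome 21, had 4, with 79 to 90 reads and no AATAAA or ATTAAA in any of them. One of these ended 17 bp before the gene for 5.8S ribosomal RNA (RNA5-8SN3), in repeated ribosomal DNA, where reads with several placements cannot be assigned.

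Protein-coding genes held 1104 members (72.9%), a smaller share than of narrow peaks (81.4%, difference -8.56 points, interval -10.9 to -6.37). These are shares of all peaks, those outside genes included. The difference therefore holds the 6.16 points by which members lay outside genes more often (14.7% against 8.49%), and it is not a separate result. Genes for lncRNAs held 151 members (9.97%), against 7.76% of narrow peaks (difference 2.21 points, interval 0.788 to 3.82), and with a limit of 600 bp that interval included 0. MALAT1, an abundant nuclear lncRNA, had a 670 bp member with 69 reads. RBM15-AS1, antisense to the RNA-binding protein gene RBM15, had a 1406 bp intronic member with 76 reads.

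Small nuclear RNAs, the RNA parts of the spliceosome, held 13 members (0.858%), against 0.0939% of narrow and 0.115% of tall narrow peaks (differences 0.764 and 0.743 points, intervals 0.408 to 1.37 and 0.372 to 1.35). Their RNAs are not polyadenylated by the mRNA pathway. Of the 13, 7 were U1 genes or variants, with the rest at U2, U4, U4atac and U5 genes. They were 506 to 1061 bp wide with 15 to 86 reads and a median of 44. RNVU1-25 had 86 reads in 768 bp, RNU5A-1 59 reads in 869 bp and RNU4ATAC 64 reads in 704 bp. Of the 10 with 1 gene strand, 0 held any of the 12 hexamers in the last 100 bp. These genes have near-identical copies, so the placement of their reads is uncertain.

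Single-exon genes were more frequent among members than among narrow peaks. Of the 1104 protein-coding members 46 (4.17%) lay at a gene whose canonical transcript has 1 exon, against 0.391% of narrow and 0.695% of tall narrow peaks (differences 3.78 and 3.47 points, intervals 2.75 to 5.12 and 2.42 to 4.83). Besides JUN and RHOB these included HEXIM1, an inhibitor of the kinase complex P-TEFb, with 92 reads in 1054 bp. They also included H1-10, a replication-independent linker histone, with 55 reads in 1022 bp, HNRNPA0, an RNA-binding protein, with 89 reads in 1013 bp, and FZD8, a Wnt receptor, with 51 reads in 1002 bp. Counted by gene rather than by peak, 31 of 266 detected single-exon genes (11.7%) and 1041 of 12540 others (8.30%) had a member, and the interval of that difference included 0 (3.35 points, -0.00541 to 7.79). A gene counts as detected where a peak with −log10 q of at least 5 lay at one of its ends. Genes with a member but without such a peak are left out, here and in the shares of detected genes below. Of the 1136 protein-coding genes with a member, 1072 are therefore counted, and this comparison by gene does not cover the others.

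Polyadenylation signals were compared at the summit, since the 3′ edge of a peak depends on its width. Hexamers were read on the gene strand for the 1078 members with genes of only 1 strand at the summit, in 100 bp centred on it, a window chosen after the data were seen. AATAAA was there in 27.2% of members and 27.98% of narrow peaks, with an interval for the difference of -3.38 to 1.95 points. It was in 44.5% of tall narrow peaks (difference -17.3 points, interval -20.1 to -14.3). The study searched 12 hexamers, which can overlap each other. Besides AATAAA and ATTAAA they were AAGAAA and AATACA, then AATAGA with AATATA, further AATGAA and ACTAAA, next AGTAAA and CATAAA, and last GATAAA and TATAAA. Any of these was at the summit in 58.6% of members, 62.0% of narrow and 78.9% of tall narrow peaks (differences -3.37 points, interval -6.35 to -0.445, and -20.2 points, interval -23.4 to -17.2).

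Before the 3′ edge the shares are given as a description and were not tested, because the summit of a member lies farther from that edge. Any of the 12 hexamers was in the last 100 bp of 53.7% of members, 63.5% of narrow and 87.3% of tall narrow peaks, and on the opposite strand in 41.7%, 39.99% and 51.7%. AATAAA itself was there in 20.96% of members, 32.3% of narrow and 55.9% of tall narrow peaks, and on the opposite strand in 9.56%, 10.0% and 13.6%. At transcript ends AATAAA was in the last 100 bp of 24.6% of members and 67.1% of tall narrow peaks.

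Runs of A in the genome, where an oligo(dT) primer can bind, were also read just past the 3′ edge and not tested. At least 18 A in 25 bases within 50 bp downstream was found at 5.66% of members, 23.8% of narrow and 7.503% of tall narrow peaks. In introns these shares were 8.07%, 30.5% and 16.6%. At transcript ends they were 4.10% of members (17 peaks), 8.88% of narrow and 2.94% of tall narrow peaks, and no order against tall narrow peaks was resolved. At least 22 A in 25, 1 part of the study's filter, was found at 1.02% of members, 4.93% of narrow and 0.956% of tall narrow peaks. The study removed such peaks only where they also lacked a polyadenylation hexamer upstream, so these are not shares of peaks it would remove. The downstream window starts at the edge and says nothing of A runs inside a member.

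**Figure D4:**
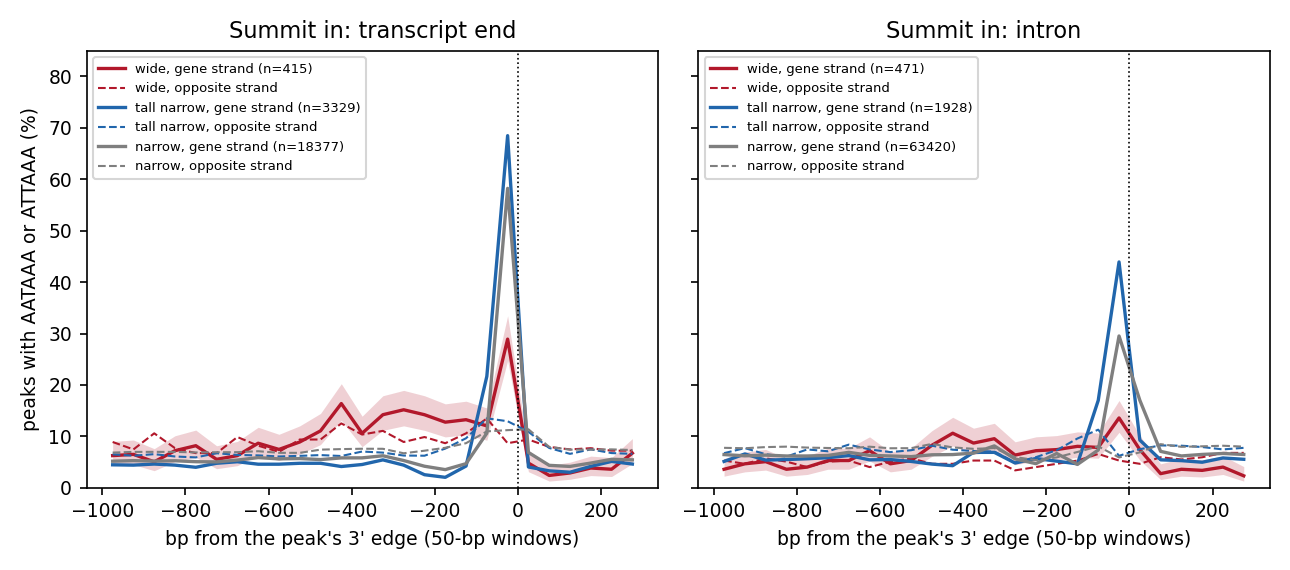
Share of peaks (y axis, %) with AATAAA or ATTAAA in each 50 bp window against distance from the 3′ edge (x axis, bp, negative upstream), at transcript ends (left) and in introns (right), on the gene strand (solid) and the opposite strand (dashed); the band is the Wilson 95% interval of members. In the last 50 bp at transcript ends 28.9% of members, 58.2% of narrow and 68.5% of tall narrow peaks hold one. Farther upstream the highest window of members there is 450 to 400 bp, with 16.4%, and 12.5% on the opposite strand. In that window 5.82% of narrow and 4.1% of tall narrow peaks hold one on the gene strand.

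Signals were also counted over a longer stretch before the 3′ edge. At least 2 separate AATAAA or ATTAAA hexamers in the last 500 bp, again a window set by the edge and not tested, were found in 39.1% of members and 29.0% of narrow peaks, and on the opposite strand in 23.8% and 22.8%. The share was 38.6% of tall narrow and 39.8% of intermediate peaks, so it was not higher in members than in these. Leaving aside the 43 members with the weakest q values (−log10 q under 5), it was 46.4% at 500 bp to under 600 bp and 27.7% at 1000 bp or more. At transcript ends it was 49.4% of members, 48.95% of intermediate and 39.7% of tall narrow peaks, and on the opposite strand 33.5%, 33.2% and 26.1%. In introns it was 28.2%, 35.8% and 40.4% of these groups on the gene strand.

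Inside members, 315 of 1078 (29.2%) held neither hexamer on the gene strand, 253 held 1, 213 held 2 and 297 (27.6%) held 3 or more. On the opposite strand 470 (43.6%) held none and 183 (17.0%) held 3 or more. The density was 2.65 per kb on the gene strand and 1.83 per kb on the opposite strand. It was highest at transcript ends (3.27 against 2.38 per kb), followed by other exons (2.95 against 2.18 per kb) and introns (1.96 against 1.16 per kb). Neighbouring signals inside a member began a median of 130 bp apart (order-statistic interval 120 to 141, 1085 pairs), with quartiles of 47 and 217 bp. On the opposite strand the median was 104 bp (interval 90 to 122, 666 pairs). Spacing cannot exceed the peak, so it was also read in a fixed 500 bp before the 3′ edge, where the median was 116 bp (interval 106 to 126) in members, 90 bp (87 to 93) in intermediate peaks, 83 bp (81 to 84) in narrow and 51 bp (48 to 55) in tall narrow peaks. This window too is set by the edge, and the medians were not tested against each other.

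The members with the most signals were in ANKRD12, which encodes an ankyrin repeat protein, with 10 on the gene strand and 0 on the opposite strand in 1205 bp, and in ADO, a cysteamine dioxygenase, with 9 and 3 in 772 bp. JUN, ANKRA2 and GRIK3 followed with 8 each. ANKRA2 and GRIK3, an ankyrin repeat protein and a kainate receptor subunit, had theirs in introns, in peaks of 653 and 566 bp with 43 and 22 reads. The 200 bases of the GRIK3 member with the most signals are given to show that they sit in A-rich sequence (chr1:36848389-36848588, GRCh38, minus strand, AATAAA or ATTAAA in capitals).
GRIK3: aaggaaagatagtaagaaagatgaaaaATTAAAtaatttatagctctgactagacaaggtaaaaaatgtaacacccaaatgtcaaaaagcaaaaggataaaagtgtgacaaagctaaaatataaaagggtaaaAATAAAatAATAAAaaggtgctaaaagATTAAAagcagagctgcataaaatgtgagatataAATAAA

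Annotated ends within 250 bp of the summit numbered 2 or more for 13.3% of members, 4.402% of narrow and 16.7% of tall narrow peaks (differences 8.87 points, interval 7.25 to 10.7, and -3.47 points, interval -5.29 to -1.49). The GC content of the 500 bp around the summit had a median of 42.4% (interval 41.6 to 43.2) in members and 41.0% (40.8 to 41.4) in tall narrow peaks. It was 45.2% (44 to 46) in intronic members and 40.6% (40.2 to 41.2) in tall narrow intronic peaks, and 38.0% (36.8 to 39.0) and 41.6% (41.2 to 42) at transcript ends. Chromosomes 19 and 17 held the most members per 1000 narrow peaks, 22.5 and 22.4, and chromosome X the fewest, 10.1.

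Among 12806 detected protein-coding genes, 1072 had a member, 8.37% of them. A peak with several genes at its summit could count for each of them, here and in the lists, so some of these peaks cannot be assigned to 1 gene. Read level moved with this share. It was 2.75% in genes whose tallest transcript-end peak had under 15 reads and 25.4% in genes with 50 or more, and the median tallest end peak was 36 reads in genes with a member and 24 in genes without. Shares of gene lists are therefore set beside that median, which was 25 reads over all detected genes, and the part of read level in them was not tested. Across gene lengths no difference was resolved, with 8.62% in the shortest quartile of genes (up to 13.9 kb) and 8.34% in the longest (from 85.2 kb), a difference of 0.281 points (interval -1.09 to 1.65). The place differed with length. A member at the transcript end was found for 6.59% of the shortest and 2.75% of the longest genes (difference 3.84 points, interval 2.82 to 4.89), and an intronic member for 1.12% and 4.62% (difference -3.50 points, interval -4.34 to -2.70).

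**Figure D5:**
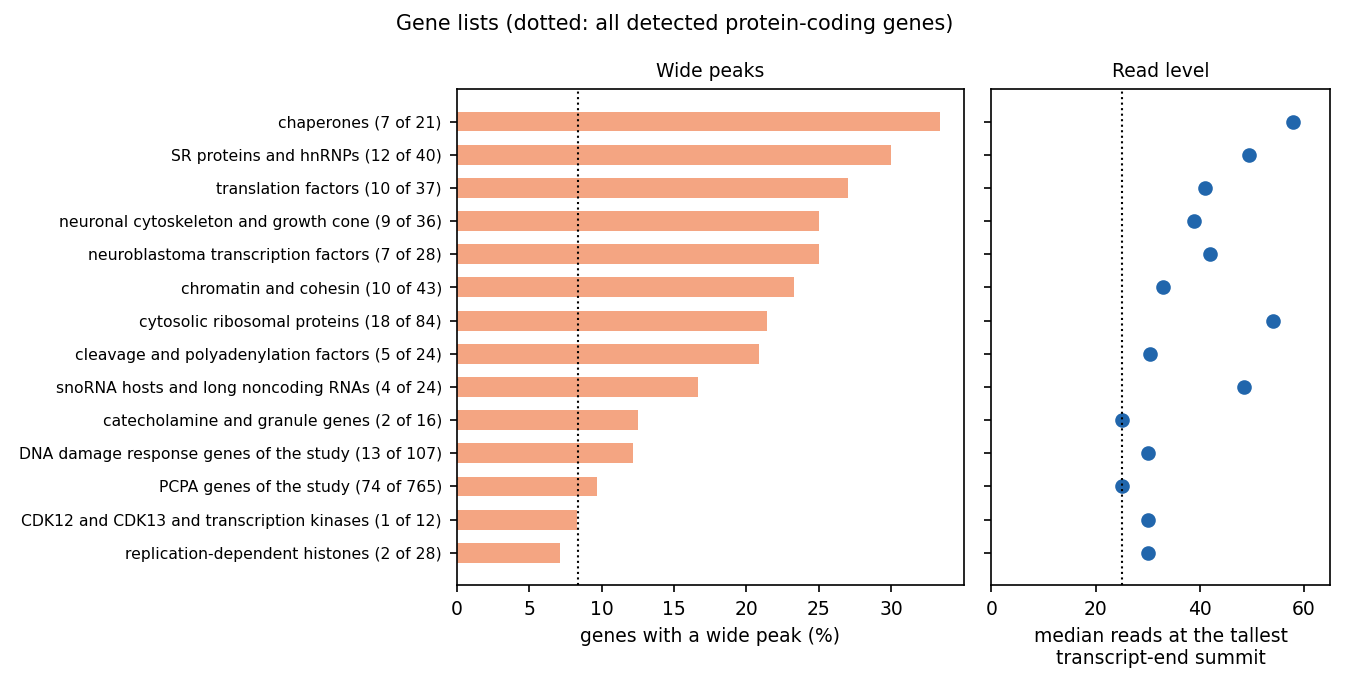
Left, share of the detected genes of each list (rows) with a member (x axis, %; counts beside the names); right, median pileup (x axis, reads) at the tallest transcript-end summit of the list's detected genes; dotted lines are all detected protein-coding genes, 8.37% and 25 reads. Most lists with a high share also lie to the right of the dotted line for reads.

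The lists are given by function and not in order of their shares. Genes with a member that were not detected are left out of these counts. They numbered 3 for neuronal cytoskeleton and growth cone genes, and 2 each for replication-dependent histones and genes marked for premature cleavage and polyadenylation. SR proteins and hnRNPs had 1, as did neuroblastoma transcription factors. Chaperones, which fold proteins, had a member in 7 of 21 detected genes (33.3%, median 58 reads), with CCT7 at 842 bp in intron 1, HSPA5 at 711 bp, HSP90AA1 at 701 bp and HSPD1 at 673 bp. SR proteins and hnRNPs, which bind pre-mRNA, had one in 12 of 40 (30.0%, 49.5 reads). Of these HNRNPU had a 1290 bp peak with 83 reads and HNRNPDL one of 945 bp with 88 reads. Translation factors had one in 10 of 37 (27.03%, 41 reads), with 1413 bp at EIF4A1, an RNA helicase, in an end that it shares with the readthrough gene SENP3-EIF4A1. EEF1A1, which delivers aminoacyl-tRNA to the ribosome, had one of 1017 bp whose summit lay 1206 bp past its canonical end. Cytosolic ribosomal proteins had one in 18 of 84 (21.4%, 54 reads), with RPL38 at 1289 bp and 80 reads and RPS14 at 1200 bp and 54 reads.

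Of the lists of the neuronal lineage, neuronal cytoskeleton and growth cone genes had a member in 9 of 36 (25%, 39 reads), among them TUBB4B at 1481 bp with 86 reads and TUBA1B at 1234 bp with 84 reads. Neuroblastoma transcription factors had one in 7 of 28 (25%, 42 reads). GATA3, a zinc finger factor of sympathetic neurons, had one of 999 bp with 66 reads, and TBX3, a T-box factor, one of 808 bp with 70 reads. Catecholamine and granule genes had one in 2 of 16 (12.5%, 25 reads), VGF at 919 bp and CPE at 528 bp.

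Chromatin and cohesin genes had a member in 10 of 43 (23.3%, 33 reads), with HMGB1 at 809 bp and 92 reads and ATRX at 740 bp and 38 reads. Cleavage and polyadenylation factors, which make the 3′ ends measured here, had one in 5 of 24 (20.8%, 30.5 reads). Those of PCF11 (644 bp, 54 reads, intron 2), PAPOLG (558 bp, 18 reads, intron 3) and CPSF2 (556 bp, 21 reads, intron 1) were intronic, and that of CPSF6 (547 bp, 38 reads) was at a transcript end. The list of snoRNA hosts and other lncRNAs had one in 4 of 24 (16.7%, 48.5 reads), with 1100 bp at SNHG8 inside PRSS12. Replication-dependent histones had one in 2 of 28 (7.14%, 30 reads), H4C3 at 779 bp with 58 reads and H3C1 at 529 bp with 44 reads. The list of CDK12, CDK13 and other transcription kinases had one in 1 of 12 (8.33%, 30 reads), a 517 bp peak with 21 reads at CCNT2, a cyclin partner of CDK9.

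DNA damage response genes that the study listed had a member in 13 of 107 detected (12.1%, 30 reads). These included APEX1, an abasic-site endonuclease, at 1222 bp with 63 reads in an end region that overlaps PIP4P1. CUL4A, a ubiquitin ligase scaffold, had one of 757 bp with 39 reads, CDKN1A, a cell cycle inhibitor, one of 735 bp with 46 reads in intron 1, and PMS1, a mismatch repair gene, one of 724 bp with 28 reads in intron 1. Genes that the study marked for premature cleavage and polyadenylation (PCPA) had one in 74 of 765 (9.67%, 25 reads), of which 34 genes had an intronic member and 26 one at a transcript end. Among all detected genes with 2 or more exons, 422 of 12540 (3.37%) had an intronic member and 503 (4.01%) one at a transcript end. In the length quartile that holds the list's median of 61.3 kb (35 to 85.2 kb), these shares were 4.34% and 3.56%. The place of members in this list was not tested against them. The widest were at HNRNPU (above), WDR26 (952 bp, 48 reads), ZNF124 (913 bp, 20 reads) and TIMP2 (877 bp, 58 reads). The study chose that list from nascent RNA sequencing (TT-seq) of THZ531-treated and DMSO-treated cells, not from this peak list.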

How the data were processed

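Poly(A) 3′-end libraries (QuantSeq REV) were made from IMR-32 cells in 3 groups of 2. Per the labels and the methods of the study, reads were trimmed by the authors, aligned to GRCh38 with STAR 2.5.1b with several placements allowed, and peaks were called with MACS2 2.1.1 on 1 merged file without a control. The deposited list gives each peak's start, end and summit offset, a ratio (fold enrichment at the summit) and the −log10 of the p-value and q-value. Whether reads at 1 position were kept once, the caller's default, is not given in the sources used here. The highest pileup in the list was 200 reads, so high pileups may count start positions rather than molecules.

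Here, pileup and background were solved from fold and −log10 p (Poisson tail; largest misfit 0.000172), and checked on simulated data. Summits were placed in GENCODE release 44 (transcript end, exon, intron, then outside genes; protein-coding first, then the longest gene), whereas the study used another release. Depth per library is unknown. Shares carry Wilson and differences Newcombe 95% intervals, medians order-statistic intervals (Python 3.11.15, scipy 1.17.1, statsmodels 0.14.6). A difference counts where its interval leaves out 0. The windows left out are the nuclear copy of mitochondrial DNA on chromosome 1 and 2 stretches of chromosome 2, around MYCN and next to MEIS1. Peaks there could not be members, so MYCN, 1 of the neuroblastoma markers, could not have one in any count above. Members, lists and named peaks were chosen with earlier results of these data known. Named peaks are the 12 widest, the 6 with the most reads, the 4 widest of each other class and of lncRNAs, the 3 genes with the most members, 3 on each side of the threshold, the 5 with the most signals and up to 4 genes of each list. The snRNA, first-intron and single-exon entries were chosen after their values were seen. No per-sample column was used.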

Additional observations from a re-analysis of the deposited data

Results flagged for a closer look

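Signal outside the peaks compared was found in both places that the choice of members leaves out. Off chromosomes 1 to 22 and X, 21 peaks were 500 bp or wider, 5 of them mitochondrial, with a median pileup of 62 reads and a highest of 200. In the 3 windows left out, 15 were, 2 on chromosome 1 and 13 on chromosome 2, with a median of 74 reads. Control libraries cannot be set apart in the merged list, and no comparison used these peaks.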

How the results depend on the processing

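No paired analysis was possible because reads were merged before peaks were called, and so no library could be left out either. With limits of 400 and 600 bp the members numbered 3869 and 712, and with −log10 q of at least 20 they numbered 643. Against tall narrow peaks the transcript-end difference was -16.9 points, the intron difference 6.61 points and the difference in 2 or more signals 0.454 points. With −log10 q of at least 20 on both sides, chosen after the data were seen, the transcript-end difference was 0.808 points. With 600 bp the lncRNA difference was 1.23 points and that in 2 or more signals 2.42 points, each with an interval that includes 0. Against peaks of 200 bp to under 500 bp the latter was -0.738 points (interval -3.69 to 2.29). It is counted as reversed below by its sign, although its interval includes 0. Centred on the summit, also chosen after the data were seen, the AATAAA difference was -0.795 points. Median spacing was 106 bp at 400 bp and 155 bp at 600 bp, 145 bp at ends of 1 protein-coding gene, 153 bp for AATAAA alone, 50 bp for all 12 hexamers and 116 bp in the last 500 bp, where the shorter or longer span and the number of motifs set part of the change. The cause of the other changes was not tested. Of 89 alternatives, 72 were counted as unchanged, 5 as weaker, 3 as reversed and 9 as moved in value. These include the number of members and the median spacing, which have no direction. They also include shares of signals before the 3′ edge, which rest on width and were not tested. The count is therefore no measure of how firm the results are.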
